A study of Mus musculus with 6 samples.

Results

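The genes described here are Src family kinases (Lyn, Fgr, Fyn, Src, Blk, Lck), the Syk-type kinases Syk and Zap70, and Btk, a Tec family kinase that acts with them. They were chosen by gene symbol, 9 in all, as every probe whose annotated symbol is one of these names. Of these, 7 genes had 16 probes, out of 45281 probes on the array. Lyn and Lck had no probe listed under their symbols in the annotation used and are not analysed here. Of the 7 measured genes, 6 had a probe bright enough to be tested, and Zap70 did not.

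The study sorted mouse dendritic cells by the mannose receptor (MR), an endocytic lectin. Both populations came from bone marrow cells grown for 1 week with the growth factor GM-CSF and then given ovalbumin tagged with Alexa647, whose uptake parted them by flow cytometry. RNA of 3 MR-positive samples (titled MR+) and 3 MR-negative samples (titled MR-) was hybridised to Illumina bead arrays, and titles number the samples of each population M1 to M3. The labels used here state no strain, age or sex of the animals. They also do not state whether the samples came from separate mice or cultures, so the p-values rest on a spread that may be technical.

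Src family kinases sit under the plasma membrane and phosphorylate tyrosines of ITAM motifs, short signalling stretches in the tails of immune receptors or their adaptor chains. Syk or Zap70 then docks on the paired phosphotyrosines through its SH2 domains and passes the signal on to adaptors, to Btk and to phospholipase C-gamma. Myeloid cells use Lyn, Fgr, Syk and Btk, among others, for this, below Fc receptors, integrins and C-type lectins such as Dectin-1. T cells use Lck and Zap70, B cells add Blk, and Src and Fyn occur in many cell types.

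Between 15988 and 16641 probes per array were detected at a detection p under 0.05, and the dimmest detected probe had 32.2 to 35.7 intensity units. Mrc1, the gene of the receptor behind the sort, was higher in MR-positive cells by 2.64 ± 0.39 (log2 difference ± SE, adjusted p = 0.00511). The dendritic cell markers Itgax, Cd74 and H2-Ab1 were detected on all 6 arrays and Flt3 on none, while the macrophage markers Csf1r and Adgre1 were also detected on all 6. Of the 9 dendritic cell markers tested, 7 were lower in MR-positive cells and 1, Itgax, was higher (88.9% called, beside 15.3% of all tested genes). Zbtb46, a transcription factor of classical dendritic cells, was undetected in MR-positive samples and at least 3.04-fold lower (adjusted p = 0.000518). It passed the filter only through the MR-negative samples, so its call and the count of 7 that holds it are descriptions. Of the 7 macrophage or monocyte markers tested, 1 was higher, the receptor kinase gene Mertk (2.10 ± 0.28, adjusted p = 0.00332). This list was called about as often as genes in general (14.3%, beside 15.3% of all tested genes). The M1 samples stood farthest from the others of their population, with a mean correlation to them of 0.979 in MR-positive and 0.972 in MR-negative cells, against 0.980 to 0.986 for the other arrays.

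Src was higher and Blk lower in MR-positive cells, and Fyn, Syk, Fgr and Btk did not pass the test. These 2 called genes of 6 tested stand beside 15.3% of all 9370 tested genes called, or 13.8% of all tested probes. The median log2 difference of the 6 genes was -0.12, beside 0.02 over all tested genes. Src and Blk passed the filter on dim probes through the population in which they were high, so their calls and count are descriptions of these probes. With the title number as a block 4 kinase genes were called, Src and Syk higher and Blk and Fyn lower, beside 30% of all tested genes and 27.7% of all tested probes. The populations did not overlap for 3 of the 6, Src, Blk and Fyn, beside 34.6% of all tested genes.

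**Figure D1:**
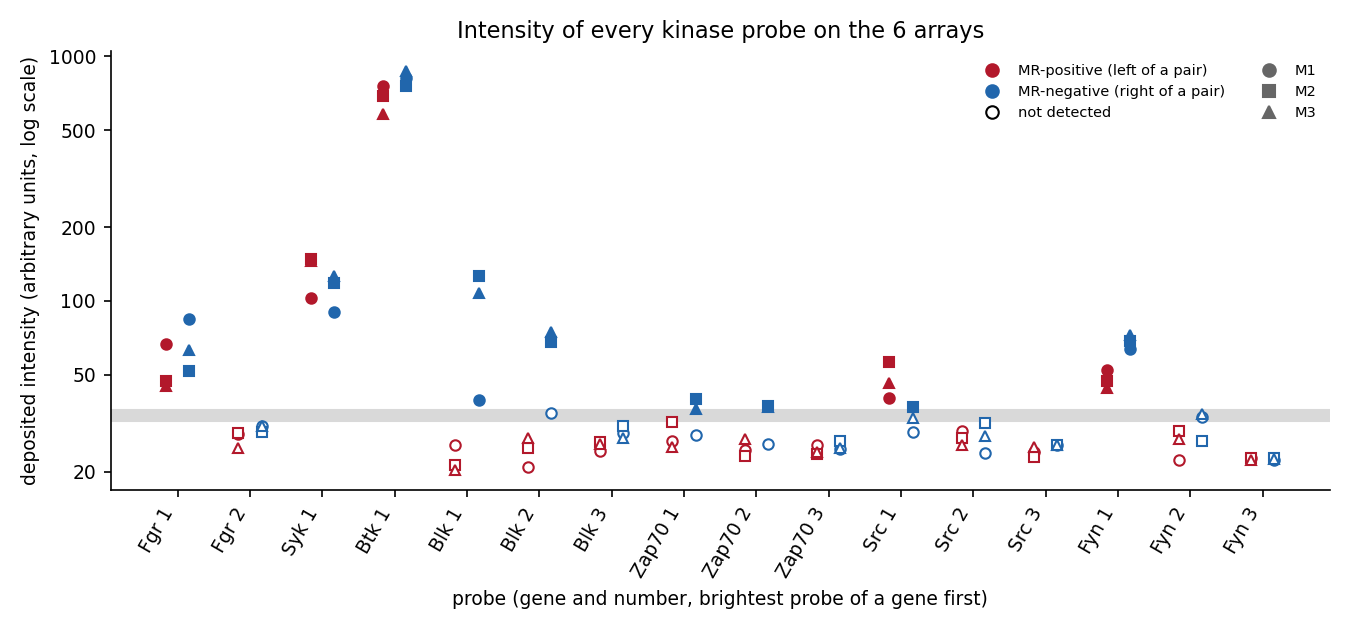
Deposited intensity (arbitrary units, log axis) of each of the 16 kinase probes on the 6 arrays, with MR-positive arrays (red) left of MR-negative arrays (blue), open symbols for arrays that did not detect the probe, and a grey band from 32.2 to 35.7 units for the dimmest detected probes. Btk is the brightest at 580 to 875 units, 2 Blk probes rise above the band in MR-negative samples, and 7 probes are detected on no array.

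The myeloid kinases were detected in all samples. Syk, the kinase that binds phosphorylated ITAMs in myeloid cells and B cells, had 103, 148 and 145 intensity units in the MR-positive samples M1 to M3, against 90.3, 119 and 127 units in the MR-negative ones. Each MR-positive sample was above the MR-negative sample of its own number, although the ranges of the populations overlapped, the MR-positive sample of M1 lying below the MR-negative samples of M2 and M3. The log2 difference of Syk was 0.48 ± 0.25 (SE, 95% interval -0.10 to 1.06), which did not pass (adjusted p = 0.274), and with the block its adjusted p was 0.0123. Without both M1 samples the difference was 0.52 and passed (adjusted p = 0.0274).

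Btk, which activates phospholipase C-gamma downstream of Syk, had the highest signal among the 16 probes, although signals of different probes are not comparable as RNA levels. It had 758, 688 and 580 units in MR-positive samples and 816, 757 and 875 units in MR-negative samples. Normalized, the populations overlapped. The log2 difference was -0.07 ± 0.13 (SE, adjusted p = 0.777), with a 95% interval of -0.38 to 0.23, and it was -0.28 within M3 and 0.03 within each of M1 and M2.

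Fgr, a Src family kinase of neutrophils, monocytes and macrophages, had 66.6, 47.0 and 44.7 units in MR-positive samples and 84.7, 51.7 and 62.9 units in MR-negative samples by its brighter probe. The M1 sample was the highest of each population and the ranges overlapped. The log2 difference was -0.17 ± 0.23 (SE, 95% interval -0.70 to 0.36, adjusted p = 0.700). The other Fgr probe had at most 28.9 units in MR-positive and 30.8 units in MR-negative samples and was detected on no array. The 7 detected neutrophil marker genes were also brightest in the M1 sample of each population. That pattern was not particular to them, as Mertk and the phosphatase gene Ptpn6 showed it too. None of the 7 neutrophil genes passed the test and 6 were lower with the block, beside 30% of all tested genes called with the block. The list's summed normalized intensity was 3080 to 5434 units in MR-positive and 5116 to 17283 units in MR-negative samples. Their part in the Fgr values was not tested.

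Blk, a Src family kinase known from B cells and also found in plasmacytoid dendritic cells, was detected in MR-negative samples and in no MR-positive one. Its brightest probe had 25.8, 21.2 and 20.4 units in MR-positive samples, against 39.4, 127 and 108 units in MR-negative samples. The populations did not overlap, but the MR-negative sample of M1 lay close to the detection limit, far below those of M2 and M3. The mean normalized log2 intensity was 4.16 ± 0.05 in MR-positive and 5.99 ± 1.14 in MR-negative cells (SD, n = 3 each). Blk was at least 2.73-fold lower in MR-positive cells, with a fitted log2 difference of -1.83 ± 0.49 (SE, adjusted p = 0.0491). In bulk RNA, fewer cells with Blk and less Blk RNA per cell cannot be told apart.

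The other Blk probes gave a graded picture. One had 20.9, 24.9 and 27.6 units in MR-positive samples and 35.0, 67.7 and 74.4 units in MR-negative samples, again lowest in M1, and was detected only in the MR-negative samples of M2 and M3. The remaining probe had 24.3 to 26.5 units in MR-positive and 27.4 to 30.8 units in MR-negative samples and was detected on no array. All Blk probes are annotated to the same transcript, and where they lie on it is not used here. With 1 array left out, Blk passed only without the MR-negative sample of M1 (-2.46, adjusted p = 0.000107). Its adjusted p was 0.0922, 0.135 and 0.144 without the MR-positive samples of M1, M2 and M3, and 0.135 and 0.167 without the MR-negative samples of M2 and M3.

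Zap70, which docks on the ITAMs of the T cell receptor and of some NK cell receptors, stayed near background. Its brightest probe had 26.7, 32.0 and 25.3 units in MR-positive samples and 28.4, 39.6 and 36.1 units in MR-negative samples. The next had 24.5, 23.2 and 27.1 units in MR-positive samples and 26.1, 37.4 and 36.7 units in MR-negative samples. Both were detected only in the MR-negative samples of M2 and M3, the same samples in which Blk was bright. These probes missed the filter, and when all probes were fitted their log2 differences were -0.22 (adjusted p = 0.686) and -0.28 (adjusted p = 0.492). The last Zap70 probe had 23.7 to 25.7 units in MR-positive and 24.8 to 26.7 units in MR-negative samples and was detected on none.

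Set side by side, Blk and the 3 tested myeloid kinases differed by unlike amounts within the title numbers. Blk differed by -0.47 within M1, -2.65 within M2 and -2.38 within M3 on the log2 scale. Its MR-positive levels were all undetected and have only a bound, so the size of these differences is uncertain. The mean of Fgr, Syk and Btk differed by 0.08, 0.17 and -0.03. This mean joins opposite signs, with Syk at 0.41, 0.51 and 0.52, Fgr at -0.19, -0.01 and -0.32, and Btk at 0.03, 0.03 and -0.28. No test was made of this contrast, since the genes were grouped with their values known, and of the lymphoid kinases Lck was not measured here and Zap70 was not tested.

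**Figure D2:**
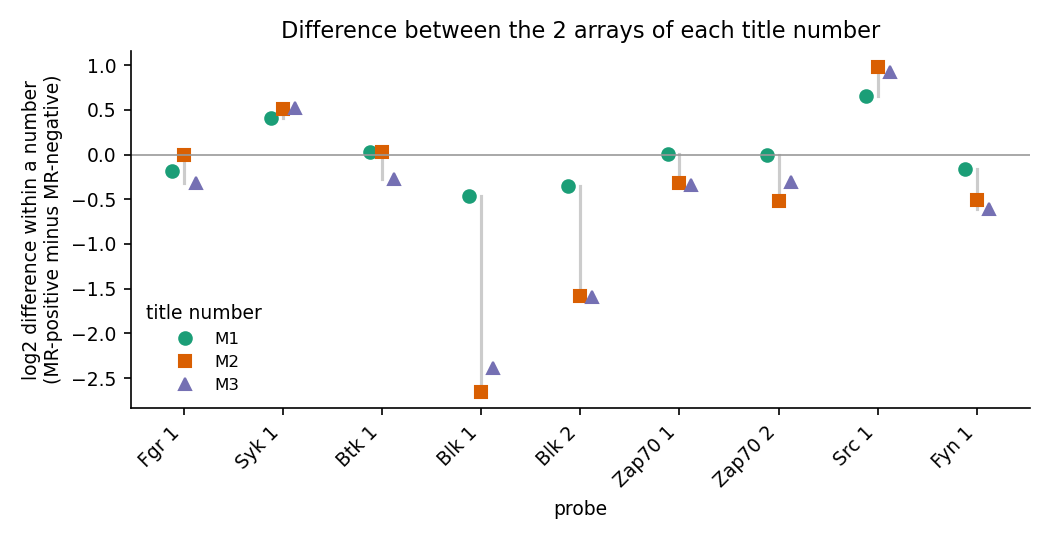
Normalized log2 difference between the MR-positive and the MR-negative array of each title number (circle M1, square M2, triangle M3) for the 9 kinase probes detected on any array. The brightest Blk probe, undetected on all MR-positive arrays, is at -0.47 in M1, -2.65 in M2 and -2.38 in M3. Syk and Src are above 0 in every number, and both Zap70 probes are close to 0 in M1.

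The T cell and NK cell lists were, like Blk, brighter in every MR-negative sample than in any MR-positive one, and so was the dendritic cell list, with sums of 15478 to 19664 units in MR-positive and 28827 to 34104 units in MR-negative samples. The summed normalized intensity of the NK cell list was 70.4 to 122 units in MR-positive and 402 to 1540 units in MR-negative samples, and that of the T cell list 718 to 1031 and 3320 to 5672 units in the same order. Linear sums weigh bright genes most. In MR-negative samples these were Klrd1 (mean log2 9.40) of the NK cell list, and Cd3g (11.2) and Cd6 (10.0) of the T cell list. Cd6 differed by -4.11 ± 0.28 (adjusted p = 0.000238). Prf1, Cd8b1 and Cd28 did not pass (adjusted p = 0.179, 0.119 and 0.704). In the T cell and NK cell lists the MR-negative sample of M1 was the lowest of its population. Of the 13 T cell markers with a probe, 4 were detected in any MR-positive sample and 6 in any MR-negative one, and Cd247, Cd4, Cd8a, Cd5, Trat1, Themis and Bcl11b were detected in none. Of the 8 NK cell markers, 2 were detected in any MR-positive and 3 in any MR-negative sample, and the defining markers Ncr1 and Klrb1c in none. The part of these 3 lists in the Blk and Zap70 values was not tested.

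The summed intensity of the macrophage or monocyte list was higher in every MR-positive sample, at 26531 to 28442 units against 23286 to 25572 units in MR-negative samples. Its tested genes did not share this direction, with a median log2 difference of -0.08. Csf1r (-0.08), Adgre1 (-0.18), Fcgr1 (-0.63) and C1qa (-0.10) were lower, and Lyz2 (0.13), Cd14 (0.66) and Mertk (2.10) higher. Of these only Mertk passed. Its brightest gene, Lyz2, did not pass (adjusted p = 0.623). The B cell and plasmacytoid dendritic cell lists overlapped between the populations. The B cell list summed to 43.7 to 65.8 units in MR-positive and 38.2 to 51.0 units in MR-negative samples, with Ms4a1 and Pax5 detected on no array. The plasmacytoid list summed to 675 to 853 and 589 to 857 units in that order, and its defining markers Siglech and Ly6d were detected on no array.

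**Figure D3:**
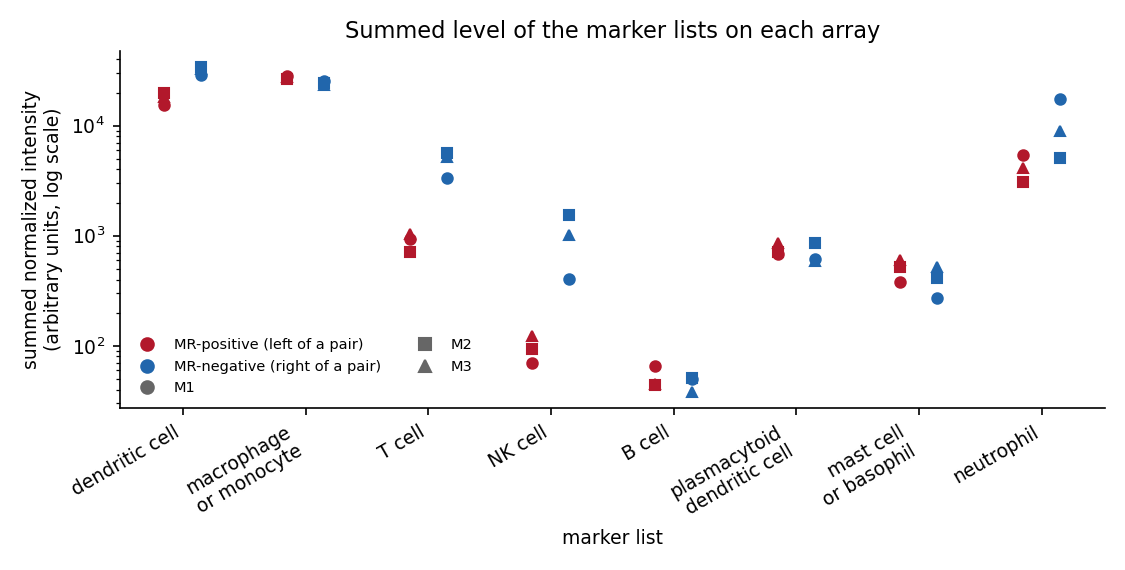
Summed normalized intensity (arbitrary units, log axis, offset removed) of each cell type marker list on each array, MR-positive in red on the left and MR-negative in blue on the right, with a symbol for each title number. The T cell, NK cell and dendritic cell sums are higher in every MR-negative sample, and the macrophage or monocyte sum in every MR-positive one. The median log2 difference of the macrophage or monocyte genes is -0.08. The B cell and plasmacytoid lists overlap between populations, and the neutrophil list is highest in the M1 samples of each population.

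Src and Fyn, which occur in many cell types, differed in opposite directions. Src, the kinase that gave the family its name and that acts at integrin contacts, had 40.2, 56.3 and 46.0 units in MR-positive samples, against 29.1, 36.7 and 33.3 units in MR-negative samples. All MR-positive samples lay above all MR-negative ones, of which only that of M2 was detected. Its mean normalized log2 intensity was 5.29 ± 0.35 in MR-positive and 4.44 ± 0.19 in MR-negative cells (SD, n = 3 each). The log2 difference was 0.85 ± 0.20 (SE, adjusted p = 0.0307), and with undetected samples at their bound Src was at least 1.67-fold higher.

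This Src result rests on 1 probe. The other Src probes had 22.9 to 29.4 units in MR-positive and 23.8 to 31.8 units in MR-negative samples and were detected on no array, and one of them is annotated to the same transcript as the detected probe. With 1 array left out, Src passed only without the MR-positive sample of M1 (adjusted p = 0.0128). Its adjusted p was 0.0943 and 0.107 without the MR-positive samples of M2 and M3, and 0.0600, 0.0537 and 0.109 without the MR-negative samples of M1, M2 and M3.

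Fyn, a kinase with roles in T cell, NK cell and myeloid receptor signalling, had 52.0, 46.9 and 43.9 units in MR-positive samples, against 63.6, 68.5 and 72.5 units in MR-negative samples. The populations did not overlap, and the difference was smallest within M1. The log2 difference was -0.43 ± 0.13 (SE, 95% interval -0.73 to -0.12), which did not pass (adjusted p = 0.0735) and passed with the block (adjusted p = 0.0394). It also passed without the MR-negative sample of M1 (-0.52, adjusted p = 0.0363) and with arrays scaled to equal medians (-0.56, adjusted p = 0.0350), a scaling that moves the median of all tested probes to -0.11. The other Fyn probes had at most 29.3 units in MR-positive and 34.4 units in MR-negative samples and were detected on no array.

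**Figure D4:**
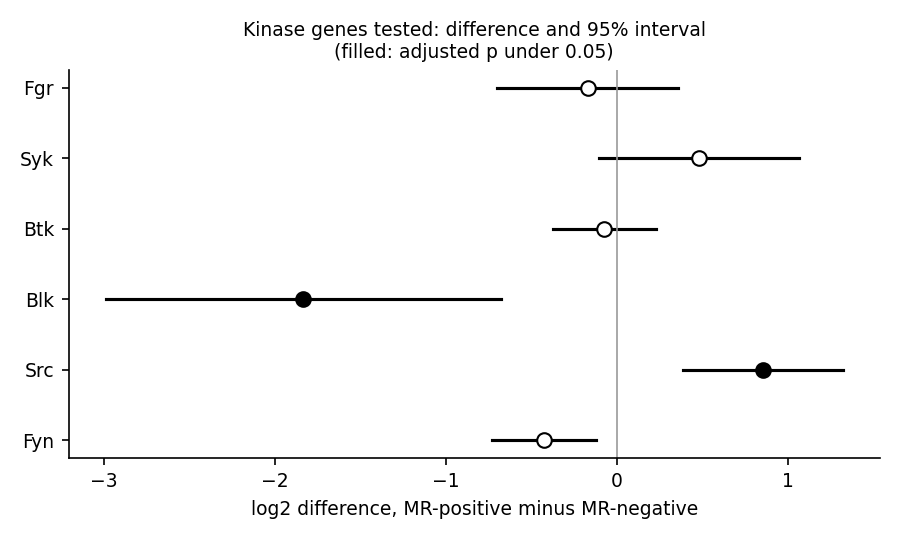
Log2 difference, MR-positive minus MR-negative, with its 95% interval from the limma fit for the 6 kinase genes tested, where filled points have an adjusted p under 0.05. Src at 0.85 and Blk at -1.83 are filled, and the interval of Fyn also leaves out 0 before adjustment.

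The sequences before the gene starts are shown for Src, which was higher, Fyn, which was lower without passing, and Btk, the bright kinase whose interval includes 0, since these windows differ in composition. RefSeq's table on GRCm38.p6 held promoter windows for 6 of the 7 measured kinases, Blk being the other. Each line gives 250 bases up to the start, 5′ to 3′ on the strand of the gene. Capitals mark GC boxes (GGGCGG) and GAGGAA, an ETS-type motif that contains the ETS core GGAA, on either strand.
Src, chr2:157424043-157424292, plus strand: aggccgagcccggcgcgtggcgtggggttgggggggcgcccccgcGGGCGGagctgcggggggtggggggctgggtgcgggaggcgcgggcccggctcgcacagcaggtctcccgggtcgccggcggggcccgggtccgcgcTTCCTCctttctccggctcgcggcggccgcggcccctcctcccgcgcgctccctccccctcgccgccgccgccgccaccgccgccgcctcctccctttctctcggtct
Fyn, chr10:39369549-39369798, plus strand: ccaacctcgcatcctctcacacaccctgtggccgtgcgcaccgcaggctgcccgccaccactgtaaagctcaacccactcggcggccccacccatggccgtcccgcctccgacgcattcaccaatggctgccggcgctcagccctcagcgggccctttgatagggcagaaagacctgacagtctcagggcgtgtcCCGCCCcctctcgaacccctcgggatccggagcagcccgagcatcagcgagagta
Btk, chrX:134583141-134583390, minus strand: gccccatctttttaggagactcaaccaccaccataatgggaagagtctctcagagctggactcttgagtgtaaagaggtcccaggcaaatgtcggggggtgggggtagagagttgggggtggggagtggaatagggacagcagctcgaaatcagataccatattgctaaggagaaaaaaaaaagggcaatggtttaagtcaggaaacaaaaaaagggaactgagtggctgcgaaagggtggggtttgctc
The share of G and C was 82.8% for Src, 67.2% for Fyn and 49.6% for Btk. The Src window held 1 GC box and 1 GAGGAA, the Fyn window held 1 GC box and no GAGGAA, and the Btk window held neither. Of all 32851 windows of this length, 32.7% held a GC box and 23.3% held GAGGAA. The core GGAA occurred 4 times in the Btk window, 1 time in that of Src and not in that of Fyn, and 93.4% of all windows held it.

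Among relatives and regulators of the kinases, 3 of 22 tested genes were lower and none higher (13.6% called, beside 15.3% of all tested genes, median log2 difference -0.27), so this list was called about as often as genes in general. The tyrosine kinase gene Ptk6 had 23.2, 23.3 and 24.0 units in MR-positive samples, all undetected, against 42.6, 52.6 and 45.2 units in MR-negative samples. Ptk6 was at least 1.42-fold lower (adjusted p = 0.00916). Dok3, an adaptor that restrains immune receptor signalling in B cells and macrophages, fell by 1.11 ± 0.14 (SE, adjusted p = 0.00244), with 374 to 513 units in MR-positive and 1019 to 1159 units in MR-negative samples. Ptpn18, a tyrosine phosphatase, differed by -0.55 ± 0.13 (adjusted p = 0.0295). Ptk6 and Dok3 passed without any 1 array, and Ptpn18 did not pass without the MR-positive or MR-negative sample of M2 or of M3 (adjusted p 0.0804 to 0.108). Ptk6 passed the filter only through the MR-negative samples, and that filter was kept with arrays left out, so its call is a description.

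The main brakes and switches of Src kinases did not pass. Csk, which phosphorylates the inhibitory tail tyrosine of Src kinases, had 943, 610 and 623 units in MR-positive samples and 1452, 1097 and 1335 units in MR-negative samples, and the populations did not overlap. Its log2 difference was -0.67 ± 0.20 (adjusted p = 0.0681). It passed with the block (adjusted p = 0.00391), without the MR-positive sample of M1 (0.0277), without both M1 samples (0.0145) and with equal medians (0.0352). Ptprc, the phosphatase CD45 that removes that phosphate, differed by 0.23 ± 0.24 (adjusted p = 0.608). Ptpn6, the inhibitory phosphatase SHP-1, differed by -0.55 ± 0.31 (adjusted p = 0.305, and 0.00855 with the block). The Src family member Yes1 was detected on no array. With the block, 3 genes of this list were higher and 7 lower, beside 30% of all tested genes called.

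Of the ITAM adaptors and downstream signalling genes, 3 of 33 tested were higher and 6 lower (27.3% called, beside 15.3% of all tested genes, of which 8.19% were higher and 7.13% lower, median log2 difference -0.0034). Tyrobp and Fcer1g, the ITAM adaptors of myeloid receptors, were detected on all arrays and did not pass (adjusted p = 0.462 and 0.148). These 2 genes were picked out after their values were seen. The T cell receptor chains Cd3g and Cd3d were the deepest falls. Cd3g had 38.9, 43.3 and 52.6 units in MR-positive samples and 1541, 3218 and 2935 units in MR-negative samples, and Cd3d had 25.3, 28.9 and 27.3 units in MR-positive and 183, 580 and 437 units in MR-negative samples. As with Blk, the MR-negative sample of M1 was the lowest of its population. Cd3e, another chain of the receptor complex, was detected only in the MR-negative sample of M2, and the chain gene Cd247 on no array.

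Card9, the adaptor that carries Syk signals to NF-kappaB in myeloid cells, had at most 31.0 units in MR-positive samples, all undetected, against 129, 105 and 101 units in MR-negative samples. It was at least 3.97-fold lower (adjusted p = 0.000140). Prkcb, a protein kinase C downstream of Btk in B cells, fell by 1.83 ± 0.12 (adjusted p = 0.000232), with 109 to 145 units in MR-positive and 453 to 528 units in MR-negative samples. Unlike for Blk, the MR-negative sample of M1 was the brightest for Card9, and for Prkcb it lay close to the other two.

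The other falls were those of Sla2, an adaptor that dampens antigen receptor signals (undetected in MR-positive cells and at least 1.39-fold lower, adjusted p = 0.0298), and of Skap2, an adaptor of integrin signalling (-0.45 ± 0.11, adjusted p = 0.0367). Rasgrp1, an exchange factor for Ras known from T cells, was 3.27-fold higher (1.71 ± 0.37, adjusted p = 0.0231), with 514, 307 and 265 units in MR-positive and 226, 96.5 and 104 units in MR-negative samples. Nck1, an adaptor to the actin skeleton (0.73 ± 0.18, adjusted p = 0.0367), and the exchange factor gene Vav2 (0.54 ± 0.12, adjusted p = 0.0232) rose too. Cd3g, Cd3d, Card9 and Prkcb passed without any 1 array. Cd3d and Card9 passed the filter only through the MR-negative samples, and that filter was kept with arrays left out. The calls of Cd3d and Card9 are therefore descriptions. Sla2, Skap2, Rasgrp1, Nck1 and Vav2 each did not pass without either sample of M2 or of M3, and all but Vav2 of these also not without the MR-positive sample of M1 (highest adjusted p 0.0918 to 0.134). With the block, 8 genes of this list were higher and 6 lower, beside 30% of all tested genes called.

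The receptors that signal through ITAMs or Src kinases had 13 of 29 tested genes higher in MR-positive cells and 3 lower (55.2% called, median log2 difference 0.54, beside 8.19% and 7.13% of all tested genes higher and lower). The 13 include the inhibitory receptor genes Fcgr2b and Cd22 (adjusted p = 0.0174 and 0.0445). As for Src and Blk, called genes detected in 1 population only passed the filter through it. They were 4 of the 16 among the receptors, 3 of the 9 among the adaptors and 1 of the 3 among the relatives. The calls of these genes, and the counts that hold them, are descriptions. Fcgr4, an activating IgG receptor, was 3.63-fold higher (1.86 ± 0.19, adjusted p = 0.00118), with 420, 651 and 559 units in MR-positive and 171, 165 and 195 units in MR-negative samples. Trem2, a lipid receptor paired with Tyrobp, was 3.11-fold higher (1.64 ± 0.17, adjusted p = 0.00119). The integrin chain Itgax (1.22 ± 0.19, adjusted p = 0.00643) and the receptor gene Cd300c2 (1.10 ± 0.21, adjusted p = 0.0149) rose as well. Clec9a, a lectin of dendritic cells that signals through Syk, and Cd2, an adhesion receptor, were detected in every MR-positive and no MR-negative sample, and were at least 2.10-fold and 1.95-fold higher (adjusted p = 0.0399 and 0.00169).

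The 3 receptors that fell were the NK cell receptor genes Klrd1 (at least 22.4-fold lower, detected in 2 of 3 MR-positive samples, adjusted p = 0.00244) and Klrk1 (undetected in MR-positive cells, at least 2.80-fold lower, adjusted p = 0.0214), and Trem3 (-1.15 ± 0.22, adjusted p = 0.0136). Klrd1 had 30.1, 44.6 and 40.4 units in MR-positive samples and 291, 1499 and 961 units in MR-negative samples, lowest in M1 as for Blk. Clec9a did not pass without the MR-positive sample of M2 or M3 or any MR-negative one, nor Klrk1 without any MR-positive sample or the MR-negative one of M2 or M3, with adjusted p up to 0.135 and 0.0895. Trem3 did not pass without the MR-positive sample of M2 or M3 (up to 0.0644), nor Cd300c2 without that of M3 (0.0653).

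**Figure D5:**
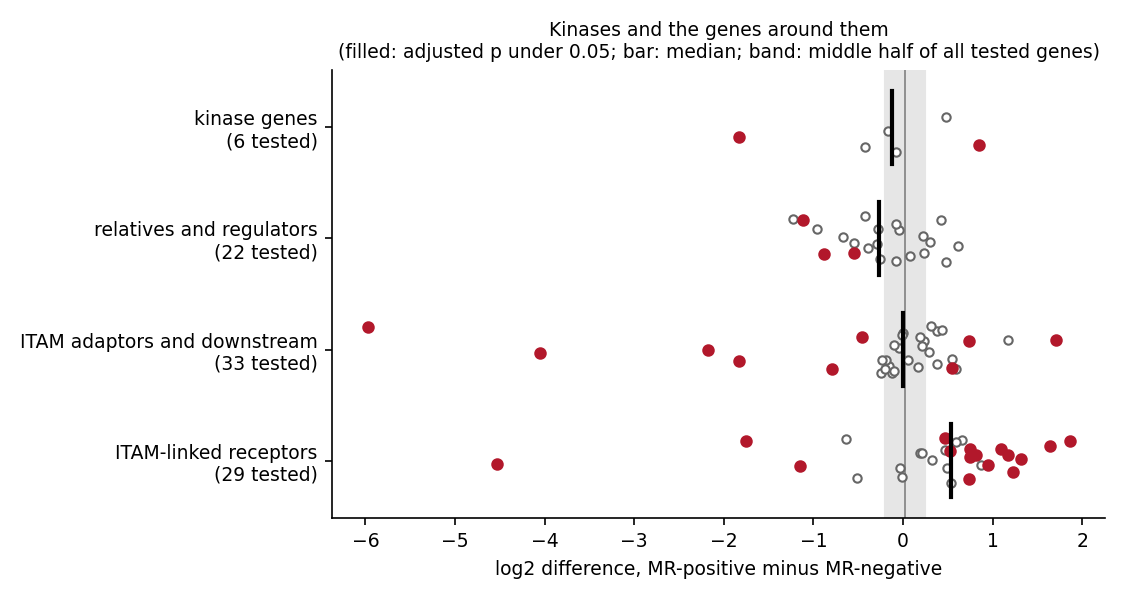
Log2 difference, MR-positive minus MR-negative, of every tested gene among the kinases (6) and the 3 pathway lists (22, 33 and 29 genes), where filled points have an adjusted p under 0.05, bars are medians and the grey band is the middle part of all tested genes (-0.20 to 0.25, lower to upper quartile). The median of the receptor list, 0.54, lies to the right of the band, while some of its genes lie inside the band or to its left. The deep falls are Cd3g and Cd3d in the adaptor list and Klrd1 in the receptor list.

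Across the 6 arrays, the named genes closest to Blk by Pearson correlation of log2 values were Rnf8, a ubiquitin ligase of the DNA damage response, the homeobox gene En2, the nucleotidase gene Bpnt1, the DNA repair gene Hmces and Arc, a gene known from neuronal synapses, with r of 0.995 to 0.998. En2, Hmces and Arc were, like Blk, detected in every MR-negative and no MR-positive sample. Those closest to Syk were Cyb5r4, a cytochrome b5 reductase, Atp2c1, a Golgi calcium pump, Ubtd2, the lectin-like gene Clec2d and the zinc finger gene Tshz1, with r of 0.993 to 0.996. These values describe 6 arrays that share the title numbers and were picked as the highest among 9369 genes.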

How the data were processed

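The deposited table of the authors holds a linear intensity per probe and array, with no background subtracted and no scaling between arrays, as its values show. A p-value follows every array's column per the file headers and was read as a detection p because its values were multiples of 1 in 936 and fell as intensity rose. A further deposited table of the authors holds intensity values that are quantile normalized, since every column has the same sorted values. The upstream software is not given in the sources used here.

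Intensities were processed in R 4.3.3 with neqc of limma 3.58.1 (background estimated from the detection p, quantile normalization, offset 16, log2). Probes with a detection p under 0.05 on at least 3 arrays were tested, 16686 of 45281. A linear model with population as its term was fitted with lmFit and eBayes, two-sided. Every adjusted p is from this limma fit, by Benjamini-Hochberg over all tested probes, with a threshold of 0.05. The tested probe with the highest mean stood for a gene, giving 9370 named genes. The annotation gave 34885 probes 1 gene symbol, gave several to 18 and did not list 10378. The fit was run on simulated data with known differences and independent noise. These data held no shared deviations of the title numbers and no detection limit, so they check the code and not the calls. A level that was not detected has only a bound, and a fold marked "at least" compares the mean of the other population with, per array, the higher of the lowest detected level and the probe's own level. Such a fold holds no sampling error. The number of arrays limits the precision.

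The title numbers M1 to M3 were checked as pairs. Deviations from the population mean, over all tested probes, correlated at 0.708 for M1, 0.569 for M2 and 0.275 for M3, so each pair passed the limit of 0.1 set for use as a block. Unlike numbers reached 0.382 (M2 MR-positive with M3 MR-negative), and the labels do not say what the numbers stand for. The description labels number the MR-negative sample of each M number as replicate 1 and the MR-positive sample as replicate 2.

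The kinases, the gene lists and the tests were chosen with earlier results of these data known. Named beyond the kinases are Csk, Ptprc, Ptpn6 and Yes1, up to 6 called genes per direction of each pathway list with the largest difference, the 5 genes closest in pattern to Blk and to Syk, and defining markers. Alternatives covered the block, background correction, scaling, the filter, the authors' normalized table and leaving out arrays, with the probes tested kept as in the full data. The planned mean of lymphoid minus myeloid levels was replaced by differences within each probe, since levels of different probes cannot be compared.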

Additional observations from a re-analysis of the deposited data

How the results depend on the processing

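With the title number as a block, the called kinase genes numbered 4 (main result 2), all tested probes 4628 (2298), relatives and regulators 10 (3) and ITAM adaptors and downstream genes 14 (9), and Fyn (-0.43) and Syk (0.48) passed at unchanged differences. The block ended no call of a kinase. With normexp at offset 50, 0 kinase genes passed by limma (3 had an unadjusted p under 0.05), with Src at 0.40 and Blk at -0.98. A larger offset shrinks log2 differences, most of all on dim probes. With no filter 0 passed (3 unadjusted), with Src at 0.85, Blk at -1.83 and 10 ITAM-linked receptors called (16). More probes were tested then, and the limma fit itself changed. The unadjusted limma p was 0.0228 for Blk (main 0.00671), 0.00776 for Src (0.00324) and 0.00520 for Fyn (0.0124). Cyclic loess left 1 kinase gene called (Src), with Blk at -1.77, and the mean of all tested probes per gene left 1, with Blk at -1.83 (adjusted p = 0.0501). Equal medians called Fyn as well (-0.56). That scaling moved the median of all tested probes to -0.11 (main 0.02), of the kinases to -0.28 (-0.12) and of the receptors to 0.43 (0.54), and the share of called probes that were higher to 30.6% (52.2%). With 1 array or both M1 arrays left out, called kinase genes numbered 0 to 4, all probes 1151 to 3485, relatives 2 to 11, adaptors 4 to 13 and receptors 7 to 20. The log2 differences then ran from 0.70 to 1.03 for Src, -2.48 to -1.43 for Blk, -0.55 to -0.36 for Fyn, 0.28 to 0.71 for Syk, -0.35 to 0.02 for Fgr and -0.15 to -0.01 for Btk. The authors' normalized values, no background correction and detection on all arrays of a population kept Src and Blk called. Signal near background limits Blk, Zap70 and Src. Other causes were not tested.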

Other observations

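Some genes around the kinases missed the threshold by little or passed only with the title number as a block, and they were picked out after their values were seen. Tec, the kinase for which the family of Btk is named, had 385, 300 and 235 units in MR-positive and 243, 246 and 203 units in MR-negative samples, with normalized values that did not overlap (0.61 ± 0.17, adjusted p = 0.0552 by limma, 0.00832 with the block). Lat, an adaptor that Zap70 phosphorylates in T cells, differed by 1.17 ± 0.32 (adjusted p = 0.0522, 0.00247 with the block). It had 42.3, 86.1 and 60.6 units in MR-positive samples. The MR-negative samples had 31.0, 39.6 and 36.8 units, near the detection limit, and that of M1 was undetected. Lime1, an adaptor that binds Src kinases, differed by -1.23 ± 0.42 (adjusted p = 0.103, 0.00502 with the block). Ptpn22, a phosphatase that acts on Src kinases, differed by -0.96 ± 0.34 (adjusted p = 0.114, 0.00245 with the block).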
